A study of Mus musculus with 9 samples.

Results

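Wif1, which encodes a secreted inhibitor that binds Wnt proteins outside the cell, was examined in mouse liver together with 9 genes known as Wnt/beta-catenin targets or marks of perivenous hepatocytes. The 10 genes were Wif1, Notum, Axin2, Nkd1, Rnf43, Znrf3, Lgr5, Tbx3, Glul and Lect2. They are 10 of the 52550 gene identifiers measured, and all 10 were found. They were chosen by name, and Wif1 was chosen for its level in these same libraries. No numerical threshold was used. The data were 9 RNA-seq libraries of liver RNA from mice aged 320 days, in 3 genotypes of 3 libraries. The extraction protocol describes depletion of ribosomal RNA, while the molecule label says polyA RNA, and the sources used here do not settle which was sequenced. The first genotype was p53+/-, with 1 functional allele of the tumour suppressor gene Trp53. The second was Tsc1fl/fl;Alb-Cre, in which Cre recombinase under the albumin promoter deletes Tsc1, an inhibitor of the growth kinase mTORC1, in hepatocytes. That promoter is also active in the fetal precursors of hepatocytes and bile duct cells, so bile duct cells may carry the deletion too. The third, p53+/-;Tsc1fl/fl;Alb-Cre, carried both and is called the double mutant here, so both the first and the third groups were heterozygous for p53. No wild-type or Cre-only liver was analysed here. Libraries are named by genotype and number. The labels do not say whether each library is a separate animal, so a liver below means 1 library.

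In the liver lobule, blood flows from the portal tract to the central vein, and hepatocytes next to the central vein receive Wnt proteins and R-spondins made by endothelial cells there. These signals stabilise beta-catenin, which with TCF/LEF factors switches on perivenous genes such as Glul and feedback genes such as Axin2. R-spondins act through LGR receptors, which keep the ubiquitin ligases RNF43 and ZNRF3 from removing Wnt receptors. A liver sample is a mixture of cells, so fewer cells of a type and less RNA per cell cannot be told apart in any value below.

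Promoter sequence is shown for Wif1, Glul and Lect2 because the double-mutant library with the most Wif1 RNA had the least Glul and Lect2 RNA of its group. Each is 250 bases before to 50 bases after the annotated start, from RefSeq on GRCm38.p6, written on the strand of the gene. They lie at chr10:121033754-121034053 (plus strand, Wif1), chr1:153899679-153899978 (plus strand, Glul) and chr13:56548489-56548788 (minus strand, Lect2). Capitals mark the core TCF/LEF motif, searched as CTTTGAA or CTTTGAT on both strands.
Wif1: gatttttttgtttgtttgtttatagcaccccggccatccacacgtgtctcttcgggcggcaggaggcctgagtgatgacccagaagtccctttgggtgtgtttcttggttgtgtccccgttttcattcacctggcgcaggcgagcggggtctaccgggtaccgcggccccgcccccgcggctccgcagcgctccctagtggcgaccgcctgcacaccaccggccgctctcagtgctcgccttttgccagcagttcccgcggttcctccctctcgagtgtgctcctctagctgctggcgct
Glul: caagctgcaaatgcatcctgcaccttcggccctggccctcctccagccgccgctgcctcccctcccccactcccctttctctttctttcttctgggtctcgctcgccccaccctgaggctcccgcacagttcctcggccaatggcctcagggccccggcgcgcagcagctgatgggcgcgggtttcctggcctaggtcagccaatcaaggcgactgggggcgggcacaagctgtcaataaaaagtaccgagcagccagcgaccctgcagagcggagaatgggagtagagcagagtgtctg
Lect2: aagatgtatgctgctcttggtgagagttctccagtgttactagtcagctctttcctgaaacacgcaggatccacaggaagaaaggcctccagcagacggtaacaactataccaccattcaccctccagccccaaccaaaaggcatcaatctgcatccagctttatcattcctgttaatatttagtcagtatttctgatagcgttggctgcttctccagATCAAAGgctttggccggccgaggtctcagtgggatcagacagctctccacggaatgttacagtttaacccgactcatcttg
The motif was found in 1 of the 7 promoters listed for 6 of the 10 genes (Wif1, Glul, Lect2, Axin2, Nkd1 and both promoters of Rnf43). That 1 was Lect2, on the opposite strand, beginning 32 bases before the start. Of 32851 mouse promoters of the same length, 8.65% held the motif. The match describes letters in this window and is not evidence of binding. The Wif1 window was 63.0% G and C, the Glul window 64.3% and the Lect2 window 48.0%, against a median of 52.7% over all promoters.

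The p53+/- libraries stood apart from the other 6 and from each other. The deposited values were taken to be FPKM, a read count scaled by gene length and by all mapped reads. On that scale a library filled with other RNA shows lower FPKM for every liver gene. Mitochondrial genes took 68.0%, 55.9% and 25.5% of the reads in p53+/- libraries 1, 2 and 3, against 7.98% to 24.2% in the others. Nuclear protein-coding genes took 7.43% and 6.64% of the reads in p53+/- 1 and 2, or about 1100000 and 700000 reads, against 61.8% in p53+/- 3 and 65.9% to 87.3% in the other genotypes. All values were therefore also rescaled to make the nuclear protein-coding total equal in all libraries, which multiplied p53+/- 1 and 2 by 10.3 and 11.1 and p53+/- 3 by 1.33, and the other 6 by 0.957 to 1.05. The library labelled p53+/- 3 was low in hepatocyte RNA. Its rescaled Alb (albumin) was 199.5 FPKM, against 22798 and 26384 in p53+/- 1 and 2 and 8369 to 12278 in the other 6. Hepatocyte RNA was still present there, with the rescaled hepatocyte marker Hnf4a at 11.7 FPKM, against 69.4 and 89.5 in p53+/- 1 and 2. As deposited, it held 265 FPKM of Col1a1 (fibroblast collagen), 699 of Lyz2 (a myeloid lysozyme) and 209.5 of Krt19 (a bile duct keratin). Rescaled calls against p53+/- and the medians of the main lists are therefore also given without this library. Rescaled Tsc1, measured over the whole gene and thus also outside the deleted part, was 1.51, 2.81 and 1.32 FPKM in p53+/-, 0.77, 0.96 and 0.91 in Tsc1-deleted and 1.02, 1.13 and 1.04 in double-mutant livers. As deposited, Tsc1 in p53+/- was 0.15, 0.25 and 0.99, so its direction against p53+/- depended on the scale.

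Wif1 RNA was low in the Tsc1-deleted livers and higher in every double-mutant liver. As deposited, Wif1 (ENSMUSG00000020218, chromosome 10) was listed at 0 in all 3 p53+/- libraries. It was at 1.49, 1.46 and 2.69 FPKM in the Tsc1-deleted livers. It reached 34.4, 19.7 and 6.03 FPKM in the double-mutant livers, so every double-mutant library lay above every Tsc1-deleted one. The means were 1.88 ± 0.700 and 20.0 ± 14.2 FPKM (SD, n = 3 each), a ratio of 10.7, or 10.5 after rescaling. The ratio was 6.84 without double mutant 1 and 14.4 without double mutant 3, and the lowest double-mutant value was 2.25 times the highest Tsc1-deleted one. On the log2(FPKM + 1) scale the difference was 2.59 (SE 0.51) after rescaling. These values chose the gene and are a description, with no test. They rested on about 1194, 797 and 268 reads in the double-mutant and about 56, 58 and 112 in the Tsc1-deleted libraries. In p53+/- 1 and 2 the nuclear reads were few, so a level below that of the Tsc1-deleted livers may not have been detectable there. The 0 in p53+/- 3 came from about 8300000 nuclear protein-coding reads, in a library low in hepatocyte RNA. Among the double-mutant livers Wif1 was highest in library 1 and lowest in library 3.

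Notum, a secreted enzyme that removes the lipid from Wnt proteins and so inactivates them, did not follow Wif1. Rescaled Notum (ENSMUSG00000042988, chromosome 11) was 5.82, 6.48 and 0.55 FPKM in Tsc1-deleted and 0.64, 2.97 and 1.66 in double-mutant livers. In p53+/- it was 2.69, 16.8 and 0.03, from 0.26, 1.51 and 0.02 as deposited. The groups overlapped throughout. Tsc1-deleted 3 and double mutant 1 were the low libraries of their groups, while double mutant 1 was the highest for Wif1. An antisense gene, Notumos, shares 708 of the 2408 exonic bases of Notum, and the sources used here do not state whether reads were counted by strand, so a part of these reads could belong to it. Notumos itself was listed at 0 to 0.442 FPKM.

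Axin2 and Nkd1 act inside the cell, Axin2 as a scaffold of the complex that destroys beta-catenin and Nkd1 as a Dishevelled-binding inhibitor. Rescaled Axin2 (ENSMUSG00000000142, chromosome 11) was 0.39, 2.39 and 0.27 FPKM in p53+/-, 0.71, 0.76 and 0.52 in Tsc1-deleted and 0.42, 0.58 and 0.33 in double-mutant livers. The p53+/- values spanned both other groups and rested on about 3, 13 and 15 reads. As deposited, Axin2 in p53+/- was 0.04, 0.22 and 0.20, below both other groups, so the order of the groups depended on the scale. Rescaled Nkd1 (ENSMUSG00000031661, chromosome 8) was 1.31, 3.30 and 1.80 FPKM in p53+/-, 0.61, 0.84 and 0.86 in Tsc1-deleted and 0.24, 1.16 and 0.98 in double-mutant livers. On this scale every p53+/- library lay above every other library. As deposited, Nkd1 in p53+/- was 0.13, 0.30 and 1.35 and overlapped the others.

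Rnf43 and Znrf3, the paired ubiquitin ligases that clear Wnt receptors from the cell surface, were the members whose double-mutant livers stood in the same order as for Wif1. Rescaled Rnf43 (ENSMUSG00000034177, chromosome 11) was 1.81, 1.28 and 1.09 FPKM in double-mutant livers 1, 2 and 3, and 1.43, 1.00 and 1.23 in Tsc1-deleted livers. Rescaled Znrf3 (ENSMUSG00000041961, chromosome 11) was 1.33, 0.90 and 0.85 in the double mutant and 0.64, 0.84 and 0.65 in Tsc1-deleted livers. For Znrf3 all 3 double-mutant values were above the Tsc1-deleted ones, the last by 0.01 FPKM, and for Rnf43 the groups overlapped. In p53+/- the rescaled values were 0.86, 2.92 and 0.21 for Rnf43 and 0.51, 1.73 and 0.82 for Znrf3, a spread wider than in either other group. As deposited they were 0.08, 0.26 and 0.16 for Rnf43 and 0.05, 0.16 and 0.62 for Znrf3, below every library of the other genotypes.

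Lgr5, the R-spondin receptor expressed by hepatocytes at the central vein, was very low. Rescaled Lgr5 (ENSMUSG00000020140, chromosome 10) was 0.09, 0.20 and 0.03 FPKM in Tsc1-deleted and 0.01, 0.09 and 0.04 in double-mutant livers, on about 2 to 32 reads a library. In p53+/- it was 0.39, 1.07 and 0.42 after rescaling and 0.04, 0.10 and 0.32 as deposited, on about 6, 11 and 43 reads. The rescaled p53+/- values lay above the other 6, and the deposited ones overlapped them. Tbx3 (ENSMUSG00000018604, chromosome 5), a T-box transcription factor that beta-catenin induces in liver, was 2.20, 1.90 and 1.42 FPKM in p53+/- after rescaling, 1.91, 1.64 and 0.42 in Tsc1-deleted and 0.19, 0.62 and 0.47 in double-mutant livers. The double-mutant values lay below all p53+/- values on this scale, and Tsc1-deleted 3 lay among them. As deposited, Tbx3 in p53+/- was 0.21, 0.17 and 1.06, around the double-mutant values.

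Glul and Lect2 are secretory and metabolic outputs of the pathway: Glul encodes glutamine synthetase, which captures ammonia in the last row of cells before the central vein, and Lect2 a secreted hepatokine. Glul (ENSMUSG00000026473, chromosome 1) was the highest of the 10 genes in 8 of the 9 libraries, and in double mutant 1 Wif1 was slightly above it. Rescaled Glul was 278, 189.6 and 73.9 FPKM in Tsc1-deleted and 31.2, 117 and 162 in double-mutant livers. In p53+/- it was 148, 183 and 58.9 after rescaling and 14.4, 16.5 and 44.1 as deposited. The rescaled groups overlapped, and the lowest of all 9 values was double mutant 1, the library with the highest Wif1. Relative to Alb, Glul was 2.26%, 2.27% and 0.679% in Tsc1-deleted livers, 0.313%, 1.36% and 1.38% in double-mutant livers, and 0.648% and 0.695% in p53+/- 1 and 2. It was 29.5% in p53+/- 3, where Alb was low. Rescaled Lect2 (ENSMUSG00000021539, chromosome 13) was 108, 76.1 and 14.2 FPKM in Tsc1-deleted, 6.00, 22.1 and 15.3 in double-mutant and 61.0, 128 and 11.1 in p53+/- livers. Tsc1-deleted 1 and 2 and p53+/- 1 and 2 were high, and no double-mutant library was above 22.1 FPKM. As deposited, Lect2 in p53+/- was 5.93, 11.5 and 8.31.

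FPKM is scaled by gene length, so levels can be set side by side across genes. In Tsc1-deleted livers the rescaled means were 180 ± 102 FPKM for Glul, 66.0 ± 47.6 for Lect2, 4.28 ± 3.25 for Notum and 1.86 ± 0.613 for Wif1 (SD, n = 3 each), and the other 6 were at or below 1.32. In double-mutant livers the order began with Glul at 103.5 ± 66.6, Wif1 at 19.6 ± 13.6 and Lect2 at 14.5 ± 8.09, and the other 7 were at or below 1.76. Wif1 thus stood below Notum in the Tsc1-deleted livers and next to Glul in the double mutant. Over the 3 libraries the range of Wif1 overlapped those of its neighbours in both orders, Notum and Tbx3 in the Tsc1-deleted livers and Glul and Lect2 in the double mutant. The range of Lect2 lay wholly above that of Notum in both groups.

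**Figure D1:**
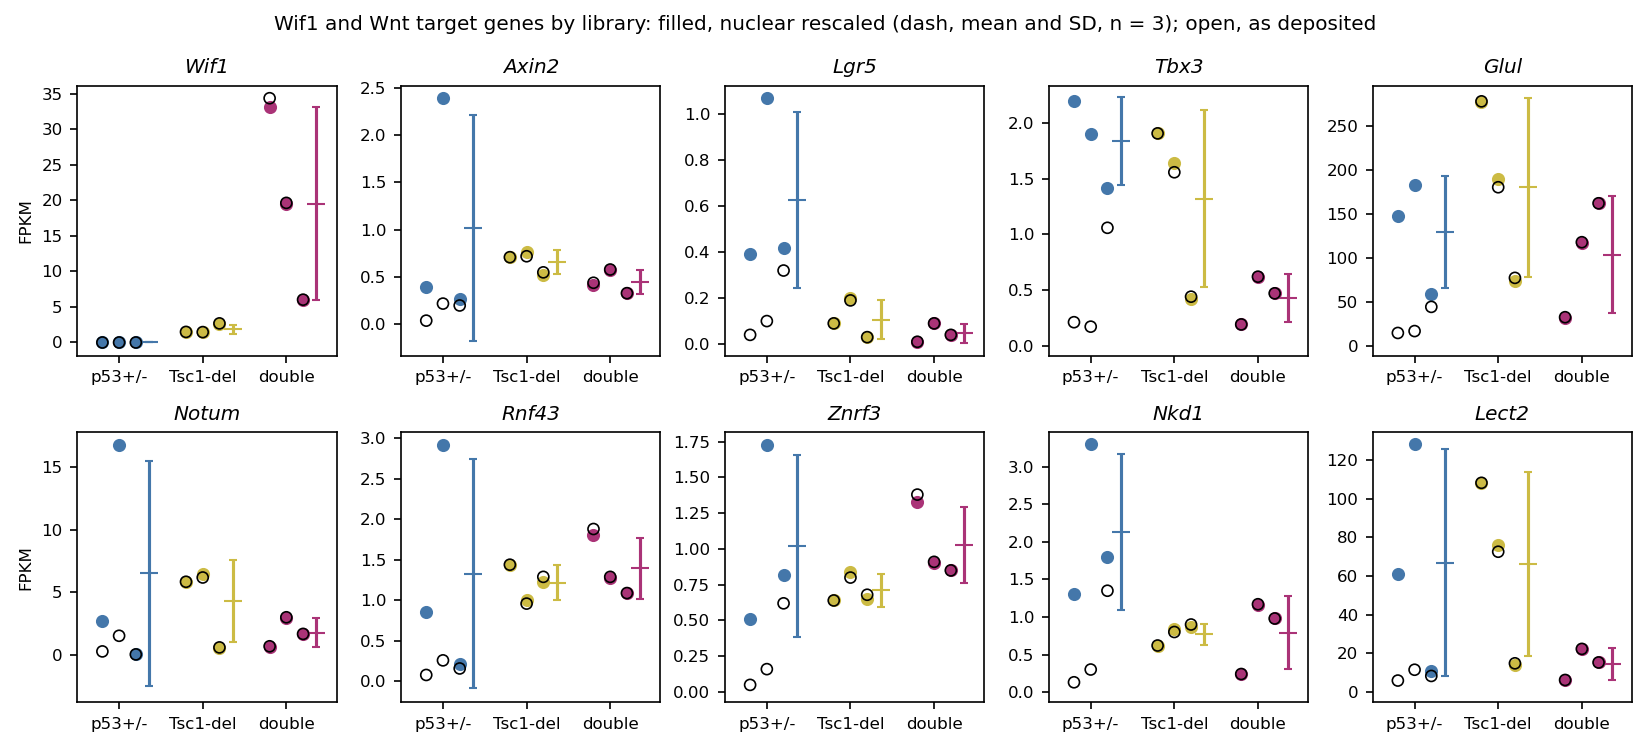
FPKM of the 10 genes in each of the 9 libraries, with 1 panel a gene and the 3 libraries of a genotype side by side in the order 1, 2, 3. Filled points are rescaled to equal nuclear protein-coding totals, open points are as deposited, and the dash with its bar is the mean ± SD of the 3 rescaled values (a bar may run below 0 where the SD exceeds the mean). Open and filled points differ mainly in p53+/- 1 and 2, and Wif1 is highest in the double mutant.

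Between the double-mutant and Tsc1-deleted groups, both of which lack Tsc1 in hepatocytes, Wif1 was thus higher and most of the Wnt targets were level or lower. The differences in log2(FPKM + 1) were -1.87 (SE 0.97) for Lect2, -0.89 (SE 0.77) for Glul, -0.73 (SE 0.96) for Notum and -0.65 (SE 0.32) for Tbx3. They were -0.21 for Axin2, -0.08 for Lgr5, -0.02 for Nkd1, 0.10 for Rnf43 and 0.24 for Znrf3. In all, 7 of the 10 were negative, with a median of -0.14, against 0.04 for all genes fitted without the filter. The 7 members above the filter had a median of -0.65, against 0.26 for all 12591 tested genes. The genes were proposed with this contrast in view, so none is tested in it. Wif1 and Znrf3 were the members, of 10, whose double-mutant values all exceeded the Tsc1-deleted ones, which 12.9% of tested genes did. Znrf3 was below the filter and so not among those tested genes. The fit with limma called 2 of the 12591 genes here (0.0159%), Slc39a5 and Adnp, neither of them in the Wnt lists. Values as deposited gave the same signs for these genes, since the rescaling factors of these 6 libraries are close to 1.

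Between the double mutant and p53+/-, none of the 6 tested genes other than Wif1 passed at an adjusted p of 0.05, against 4.74% of all genes. The other 3, Axin2, Lgr5 and Znrf3, did not reach 1 FPKM in 3 libraries and were fitted only without that filter, where none passed either. The largest differences were -1.73 (SE 0.97) for Lect2, -1.0 (SE 0.32) for Tbx3 and -0.80 (SE 0.33) for Nkd1, with limma adjusted p of 0.325, 0.106 and 0.180. Tbx3 and Nkd1 had unadjusted p of 0.0119 and 0.0345, a level that 23.0% of all genes reached. Glul differed by -0.47 (SE 0.77), Notum by -0.65 (SE 0.96) and Rnf43 by 0.20 (SE 0.40), each less than its SE. Without p53+/- 3, Tbx3 (-1.11, limma adjusted p = 0.0411) and Lect2 (-2.69, limma adjusted p = 0.0421) fell, in a setting where 24.7% of all genes passed, while Glul was at -0.96, Notum at -1.65, Nkd1 at -0.86 and Rnf43 at -0.19. With p53+/- 3 as the only p53+/- library instead, Lect2 was at 0.19, Glul at 0.51 and Notum at 1.33, so these directions rested on which p53+/- libraries were used. As deposited, Rnf43 rose by 1.04 (limma adjusted p = 0.0334) where 32.4% of all genes passed, and the median of all genes was 1.38. Over all alternatives the adjusted p ranged from 0.0334 to 0.959 for Rnf43, from 0.0411 to 0.969 for Tbx3 and from 0.0421 to 0.907 for Lect2. Rescaled, 3 of the 9 members other than Wif1 lay wholly below p53+/- (Lgr5, Tbx3, Nkd1), as 11.1% of tested genes did. As deposited, 3 of these 9 lay wholly above it (Axin2, Rnf43, Znrf3), as 41.3% did. The tested genes behind these shares do not include Axin2, Lgr5 and Znrf3, which were below the filter.

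Between the Tsc1-deleted livers and p53+/-, none of the same 6 genes passed, against 1.11% of all genes (140 genes, or 73 with the replicate number as a block). Glul differed by 0.43 (SE 0.77), Lect2 by 0.13 (SE 0.97), Notum by 0.08 (SE 0.96), Rnf43 by 0.10 (SE 0.40) and Tbx3 by -0.35 (SE 0.32), with limma adjusted p from 0.610 to 0.978. Nkd1 differed by -0.78 (SE 0.33, limma adjusted p = 0.247, unadjusted 0.0386, a level that 18.2% of all genes reached). Without p53+/- 3 the differences were -0.06 for Glul, -0.83 for Lect2, -0.92 for Notum, -0.29 for Rnf43, -0.46 for Tbx3 and -0.83 for Nkd1, and none passed, against 9.0% of all genes. As deposited, Glul was 2.79 and Lect2 2.43 above p53+/- with limma adjusted p of 0.0615 and 0.0809, where the median of all genes was 1.07 and 12.2% passed. In these values 5 of the 9 members other than Wif1 lay wholly above p53+/- (Axin2, Glul, Rnf43, Znrf3, Lect2), as 27.4% of tested genes did. After rescaling none of these 9 did, as 8.33% of tested genes did. On that scale 2 of the 9 lay wholly below p53+/- (Lgr5, Nkd1), as 13.7% did. Axin2, Lgr5 and Znrf3 were below the filter, so the tested genes behind these shares do not include them. Both comparisons use the same p53+/- libraries.

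**Figure D2:**
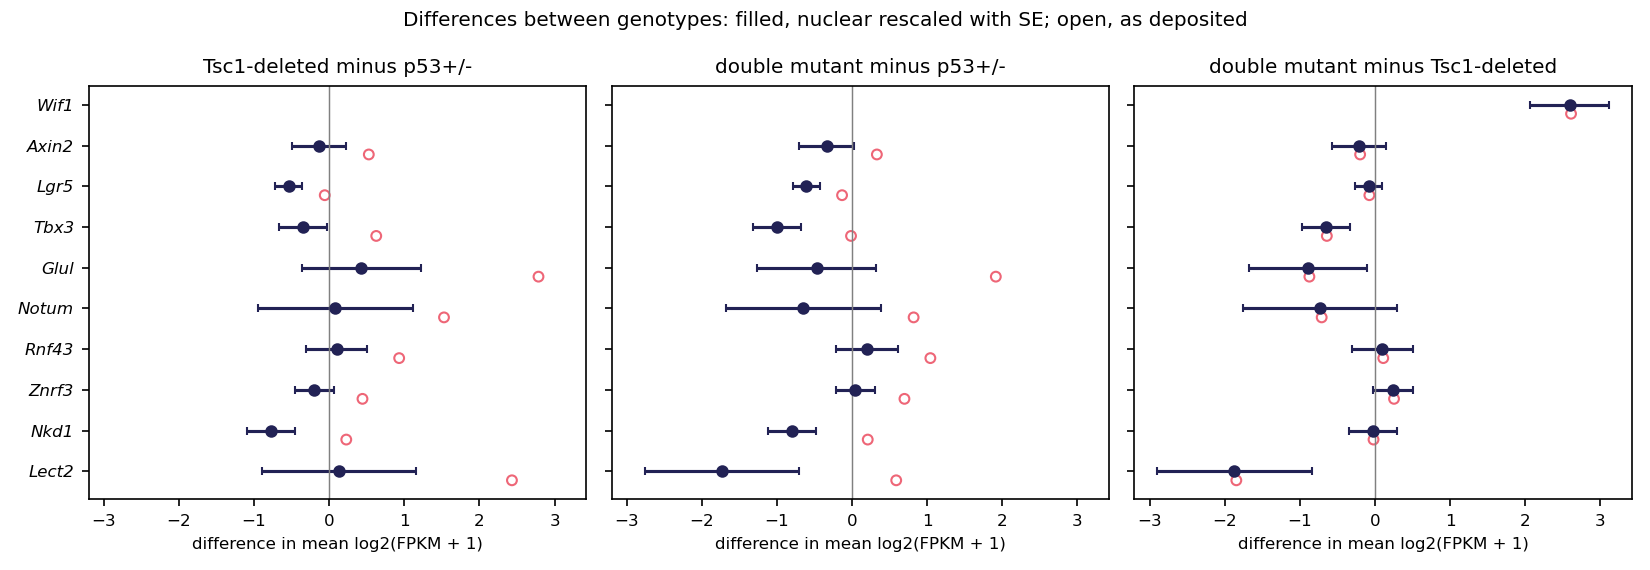
Difference in mean log2(FPKM + 1) between genotypes for the 10 genes, in 3 panels, filled points rescaled with bars of 1 SE from the fit across all genes and open points as deposited. Against p53+/- the open points sit to the right of the filled ones, by over 2 for Glul and Lect2, while between the double mutant and the Tsc1-deleted livers they coincide. Wif1 is drawn only in the last panel, at 2.59, because it is listed at 0 in p53+/-.

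Within each genotype the targets moved by library. Of the 9 genes other than Wif1, Tsc1-deleted 3 was the lowest of its group for 6, and double mutant 1 for 6. Double mutant 2 was the highest of its group for 6, and p53+/- 2 for 8. Rspo3, the R-spondin that central vein endothelium supplies, was low in the same libraries: as deposited it was 0.97, 0.85 and 0.17 FPKM in Tsc1-deleted and 0.08, 0.43 and 0.55 in double-mutant livers. Wnt9b and Wnt2, the ligands of central vein and sinusoidal endothelium, were at 0.29 and 0.28 FPKM in Tsc1-deleted 1 and at 0.31 and 0.47 in Tsc1-deleted 2. They were at 0.02 and 0.00 in Tsc1-deleted 3, at 0.14 and 0.08 in double mutant 2 and at 0.00 and 0.02 in double mutant 3, and both were listed at 0 in double mutant 1. Both ligands were thus as low in double mutant 3, where Glul and Rspo3 were the highest of their group, as in Tsc1-deleted 3 and double mutant 1. Values this low rest on few reads.

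The same libraries differed in markers of other liver cells. The 12 endothelial markers, none of them listed at 0 across a group, summed to 5.43 rescaled FPKM in double mutant 1, against 28.4 and 30.0 in double mutants 2 and 3 and 22.8, 21.8 and 30.1 in Tsc1-deleted livers. In p53+/- the sums were 38.5, 44.2 and 55.0. Endothelial markers were thus low in double mutant 1 but not in Tsc1-deleted 3, although Rspo3 and Glul were low in both. The 9 stellate cell and fibroblast markers summed to 12.1 in double mutant 1 and 40.4 to 98.8 in the other 5 Tsc1-deleted and double-mutant libraries. The 6 cholangiocyte markers were highest in double mutant 1 (3518) and Tsc1-deleted 3 (2603), against 529.5 to 1530 in the other 4, an order set by Spp1. Without Spp1 the other 5 summed to 91.9, 40.3 and 101 in double mutants 1, 2 and 3 and to 17.5, 18.8 and 39.2 in the Tsc1-deleted livers. Wnt4, the most abundant Wnt ligand, was highest in double mutant 1 and Tsc1-deleted 3, at 4.69, 4.64 and 41.7 FPKM as deposited in Tsc1-deleted and 72.3, 7.71 and 20.3 in double-mutant livers. The 8 macrophage markers summed to 86.1 to 195 in Tsc1-deleted and 105 to 369 in double-mutant livers. In p53+/- 3 the stellate, macrophage and cholangiocyte sums were 899, 1097 and 2545, against at most 110.5, 212 and 149 in p53+/- 1 and 2. Des, a stellate cell filament gene, fell in the double mutant against p53+/- (-2.07, limma adjusted p = 0.0321, and 0.0130 without p53+/- 3). Of all genes, 4.74% passed in that comparison, and 24.7% without p53+/- 3. None of the 5 tested cholangiocyte markers passed there with all 9 libraries. Without p53+/- 3 all 5 rose in the double mutant, with a median of 3. In that setting 2 of 8 stellate, 2 of 7 macrophage and 1 of 9 endothelial markers fell, and none of these rose. In the Tsc1-deleted livers 1 of the 5 cholangiocyte markers then rose, and 1 of 8 stellate and 1 of 7 macrophage markers fell, where 9.0% of all genes passed. The part of these cell markers in the levels of Glul, Lect2, Notum and Wif1 was not tested.

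**Figure D3:**
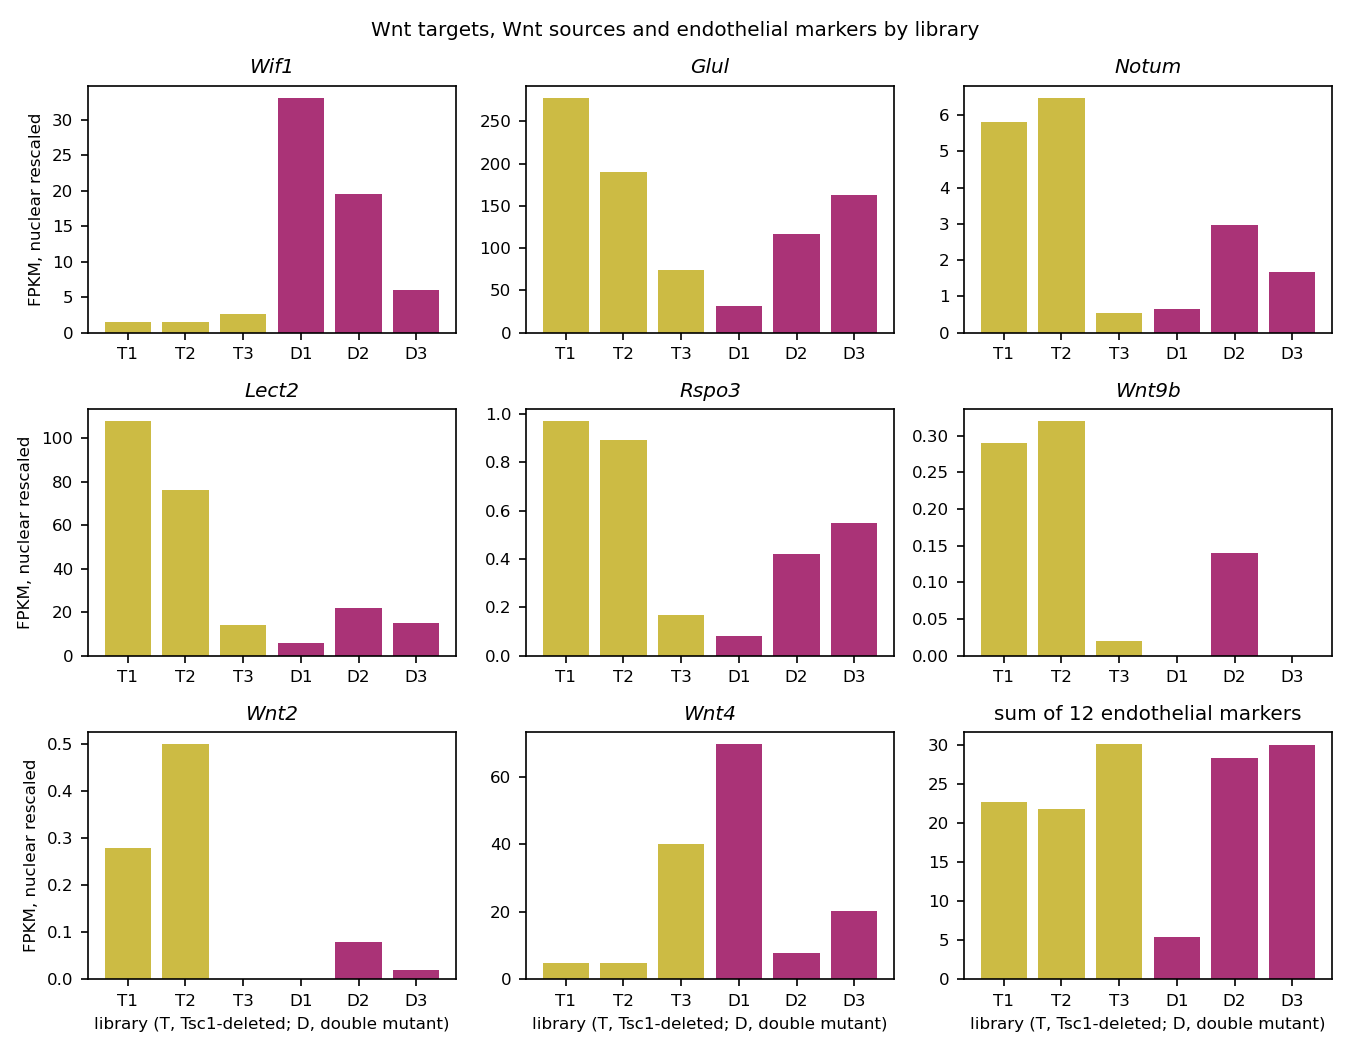
Rescaled FPKM in the 3 Tsc1-deleted (T1 to T3) and 3 double-mutant (D1 to D3) libraries for 4 of the 10 genes, for Rspo3, Wnt9b, Wnt2 and Wnt4, and for the sum of 12 endothelial markers, each bar being 1 library. T3 and D1 are the low bars for Glul, Notum, Lect2 and Rspo3 and the high bars for Wnt4, and D1 alone is low for the endothelial sum, at 5.43.

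The wider pathway was read from 102 further genes: Wnt ligands, R-spondins, receptors, secreted inhibitors, signal transduction, other target genes and perivenous hepatocyte genes. After the filter 60 remained. None passed in the Tsc1-deleted livers against p53+/- or in the double mutant against the Tsc1-deleted livers, with 4 and 2 at an unadjusted p under 0.05 (18.2% and 4.12% of all genes). In the double mutant against p53+/- 1 of the 60 rose, none fell, and 8 were under 0.05 unadjusted. As deposited, 9 of 59 rose against p53+/- in the Tsc1-deleted livers and 14 of 59 in the double mutant. Of all tested genes, 2.46% rose in the double mutant against p53+/- after rescaling, and as deposited 12.1% rose in the Tsc1-deleted livers and 31.9% in the double mutant. Without p53+/- 3, 1 of 57 passed in the Tsc1-deleted livers and 13 of 57 in the double mutant, where 9.0% and 24.7% of all genes passed.

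The gene that rose was Cldn2, a tight junction claudin that in liver is concentrated around the central vein. Rescaled Cldn2 was 5.46, 3.29 and 9.02 FPKM in p53+/-, 16.1, 11.4 and 6.07 in Tsc1-deleted and 16.2, 47.5 and 43.1 in double-mutant livers. All double-mutant values lay above the rest, 16.2 only just above 16.1. The difference from p53+/- was 2.35 (SE 0.53, limma adjusted p = 0.0405). It was 2.66 without p53+/- 3 (limma adjusted p = 0.00855). It did not pass with the replicate block, with no filter or with only the 6 libraries compared. Nor did it pass when p53+/- 1, p53+/- 2, both of these, Tsc1-deleted 1, Tsc1-deleted 2 or any 1 double-mutant library was left out. The adjusted p ranged from 0.00855 to 0.159 over the alternatives. Of the 15 perivenous genes, Cldn2 included, 6 were positive and 9 negative against p53+/-, with a median of -0.27, against 0.15 for all genes. Without p53+/- 3 the median was -1.18, against 0.39 for all genes. In that setting Cldn2 rose and 5 fell: Cyp1a2, Rgn, Nr1i3, Lhpp and Cyp27a1. There 2990 of 12095 tested genes (24.7%) passed, 797 of them lower. As deposited, with all 9 libraries, all 15 were positive against p53+/- in both genotypes. Their median was 2.2 in the Tsc1-deleted livers and 1.39 in the double mutant, against 1.07 and 1.38 for all genes. On that scale 8 and 5 of the 15 rose and none fell, where 12.1% and 31.9% of all genes rose. The sign of the perivenous median in the double mutant against p53+/- thus depended on the scale. Between the double-mutant and Tsc1-deleted livers 14 of the 15 were negative, all but Cldn2, with a median of -0.71, against 0.26 for all genes, and none passed. Cyp2e1, the perivenous ethanol-metabolising P450, was 1307, 657 and 209 rescaled FPKM in Tsc1-deleted and 76.6, 330.5 and 283 in double-mutant livers. Cyp1a2, a P450 of the same zone, was 161, 157 and 112 in Tsc1-deleted and 4.93, 48.1 and 17.7 in double-mutant livers, without overlap. Cyp1a2 and the other 4 that fell were chosen after their values were seen. In p53+/-, Cyp2e1, Cyp1a2 and these other 4 were higher in libraries 1 and 2 (390.5 and 495 for Cyp2e1) than in library 3 (8.96). Not all 15 perivenous genes were, since Cldn2 and Ahr (3.22, 2.72 and 10.4) were highest in library 3. The 16 periportal genes had medians of 1.29, 1.13 and -0.19 in the 3 comparisons. In the double mutant against p53+/- 2 of them rose, where 2.46% of all tested genes rose. These were Hsd17b13 (3.98, SE 0.94, limma adjusted p = 0.0456) and Aldh1b1 (3.21, SE 0.66, limma adjusted p = 0.0325). The 10 general hepatocyte markers had medians of 1.5, 1.58 and 0.02. Rescaled Hsd17b13 was 75.7 and 68.6 FPKM in p53+/- 1 and 2 and 5.22 in p53+/- 3. Without p53+/- 3 the medians against p53+/- were 0.69 and 0.40 for the periportal genes and 0.12 and 0.36 for the hepatocyte markers. Hsd17b13 then differed by 2.80 and Aldh1b1 by 2.45 in the double mutant (limma adjusted p of 0.00555 and 0.00442). In the Tsc1-deleted livers they differed by 1.90 and 1.94 (limma adjusted p of 0.0424 and 0.0211), so both genes passed in both genotypes. In that setting 5 of the 16 periportal genes rose and 2 fell in the double mutant, where 24.7% of all genes passed. In the Tsc1-deleted livers 3 of the 16 rose and none fell, where 9.0% of all genes passed. The part of the hepatocyte share in these values was not tested.

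Of the signalling genes, those above the filter were 3 of 19 Wnt ligands, none of 4 R-spondins, 11 of 17 receptors, 3 of 14 secreted inhibitors and their receptors, and 23 of 24 transduction genes. None passed after rescaling. The transduction genes had medians of -0.38, -0.09 and 0.29 in the Tsc1-deleted against p53+/-, double mutant against p53+/- and double mutant against Tsc1-deleted comparisons, and the receptors -0.17, 0.16 and 0.24. All genes had medians of -0.13, 0.15 and 0.26. Without p53+/- 3 the medians against p53+/- were -0.06 and 0.21 for the transduction genes, 0.02 and 0.31 for the receptors and 0.11 and 0.39 for all genes. Ctnnb1, which encodes beta-catenin itself, was 25.4, 16.7 and 67.7 rescaled FPKM in p53+/-, 23.0, 19.0 and 50.7 in Tsc1-deleted and 65.1, 48.3 and 63.0 in double-mutant livers. The groups overlapped because p53+/- 3 and Tsc1-deleted 3 were high. Ccnd1, cyclin D1, which is also a Wnt target, was 18.4, 13.1 and 128 in p53+/-, 12.9, 10.99 and 11.1 in Tsc1-deleted and 46.5, 17.3 and 22.2 in double-mutant livers. Of the remaining Wnt inhibitors the most abundant was Dkk3, at 1.71 to 4.45 rescaled FPKM in Tsc1-deleted and 1.12 to 3.39 in double-mutant livers, which overlapped. As deposited, Wnt5b passed in both comparisons with p53+/-, and Wnt4, Fzd4, Lrp5, Lgr4, Dvl3, Axin1, Ctnnb1 and Tnfrsf19 in the double mutant. On that scale 12.2% of all genes passed in the Tsc1-deleted livers and 32.4% in the double mutant. Wnt4, Axin1, Ctnnb1 and Tnfrsf19 also rose in the double mutant against p53+/- after rescaling without p53+/- 3. In that setting 2 of 22 transduction genes rose and 2 fell, 1 of 9 receptors rose, and 24.7% of all genes passed.

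**Figure D4:**
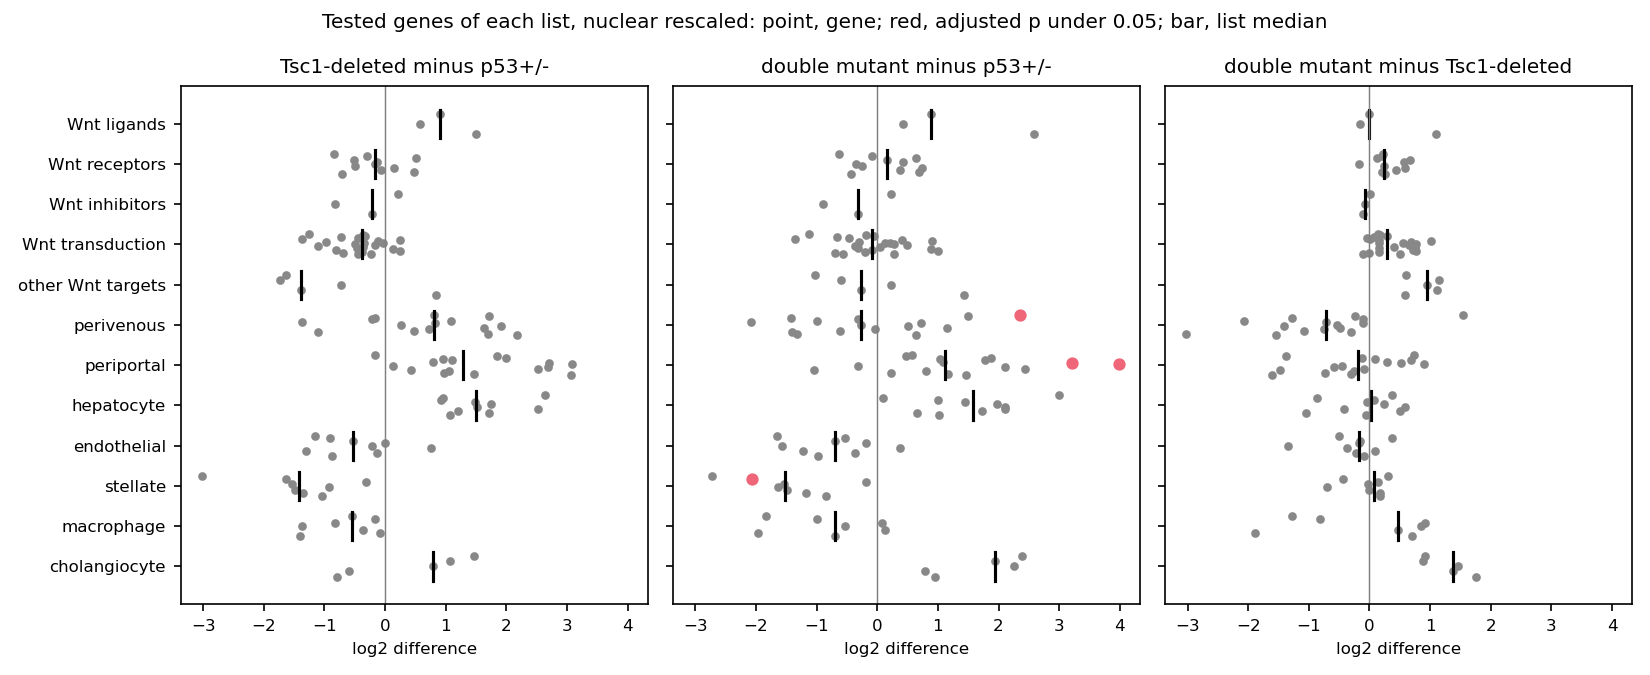
Log2 difference of every tested gene of each list after rescaling, in 3 panels for the 3 comparisons, with each point 1 gene, red points those with limma adjusted p under 0.05 and the black bar the list median. The red points are Cldn2, Hsd17b13, Aldh1b1 and Des, all in the double mutant against p53+/-, and the perivenous list lies mostly left of 0 in the last panel, with a median of -0.71.

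Genes with profiles most like Wif1 were ranked by Pearson r of rescaled log2(FPKM + 1) over the 9 libraries, which share the differences in depth and makeup described above. The top 5 of the 12591 genes were Smpd1 (0.964), Gm24201 (0.959), C130074G19Rik (0.959), Trappc9 (0.958) and Ggt1 (0.953). Ggt1, gamma-glutamyltransferase, was 1.91, 7.38 and 3.82 FPKM in Tsc1-deleted and 31.5, 27.4 and 13.6 in double-mutant livers as deposited, the same library order in the double mutant as Wif1. Over the 6 Tsc1-deleted and double-mutant libraries the top genes were Rab25 (0.994), Derl1 (0.994), Tns2 (0.989), Abca8a (0.986) and Col16a1 (0.986). None of the other 9 members was among them. Over these 6 libraries Wif1 had r of 0.85 with Znrf3, 0.61 with Rnf43, -0.73 with Glul, -0.74 with Tbx3 and -0.76 with Lect2. Over all 9 these were 0.20, 0.24, -0.45, -0.84 and -0.59. For Axin2 the top 5 were Marco (0.954), 9030622O22Rik (0.941), Gm6444 (0.903), Fn3k (0.902) and Nfyb (0.895), and for Glul they were Glns-ps1 (0.930), Upp2 (0.903), Sat2 (0.893), Gm4756 (0.881) and Gdf2 (0.877). Glns-ps1 is a pseudogene of glutamine synthetase, so reads of Glul can be assigned to it. These r values were picked as the highest among many genes and carry no test.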

How the data were processed

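The authors deposited 1 value per gene and library. Its unit was taken to be FPKM, since the sum of FPKM times gene length was 0.914 to 0.974 of what that unit requires, and the deposited files do not name it. The submitters' processing notes name cutadapt, STAR, StringTie and the build mm9, with no versions. Of 52550 identifiers, 52403 matched GENCODE mouse release 21, used for names, biotypes and lengths. Depth, estimated from the FPKM step of 1 read, was about 10700000 to 18300000 reads a library, and read numbers in the text are such estimates.

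Each library was rescaled to the median FPKM total of nuclear protein-coding genes. Genes with at least 1 FPKM in 3 of the 9 libraries (12591) were fitted as log2(FPKM + 1) with limma 3.58.1 in R 4.3.3 (trend and robust moderation, 1 fit over 9 libraries), with Benjamini-Hochberg adjustment over all tested genes and a threshold of 0.05. The script was tested on simulated data. A fold change on this scale understates that of low genes. Python 3.11.15 with pandas 2.3.3 did the rest. The labels do not say whether each library is a separate animal, so the spread behind the p-values may be technical. The numbers 1 to 3 were checked for pairing by the correlation of deviations from the group means. It was 0.172, 0.113 and 0.349 for Tsc1-deleted with p53+/-, above 0.1 in every pair, but not for the other comparisons. The labels do not pair the libraries, and libraries with different numbers were not correlated. These values therefore cannot show whether the libraries are paired, and the block rests on these data alone.

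The members and gene lists were chosen with earlier results of these data known. Named genes were all 10 members, from each list up to 4 passing genes with the largest change and the most abundant gene, and the 5 genes most like Wif1, Axin2 and Glul. Some genes were named outside this rule, Wnt9b, Wnt2 and Krt19 among them. Alternatives were other scalings, pseudocounts, filters, the block and leaving out libraries.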

Additional observations from a re-analysis of the deposited data

How the results depend on the processing

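Of the 9 members other than Wif1, the count passing in the double mutant against p53+/- was 0, and 1 as deposited. Leaving out 1 library gave 0 to 2, the 2 without p53+/- 3. In the Tsc1-deleted livers it stayed 0 in all alternatives. Of the wider genes, the count in the Tsc1-deleted livers against p53+/- was 0, but 9 as deposited, 25 without p53+/- 1 and 2, and 0 to 1 with 1 library left out. In the double mutant against p53+/- it was 1, but 14 as deposited, 19 without p53+/- 1 and 2, 2 with median-ratio, quantile or length-weighted nuclear rescaling, 0 with no filter or only the 6 libraries compared, and 0 to 13 with 1 library left out (13 without p53+/- 3). With the replicate block it was 0, and no other count of members or wider genes changed. The length-weighted scaling was chosen after seeing the data. The median difference of all 10 members between the double mutant and the Tsc1-deleted livers was -0.14, and -0.47 with a pseudocount of 0.1. Without p53+/- 1 and 2 the p53+/- group is 1 library, the one low in hepatocyte RNA, which is assumed to vary like the other groups. No count is given for that setting. The cause of these shifts was not tested.

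Over all genes, the Tsc1-deleted count against p53+/- was 140 of 12591, and 1470 of 12014 as deposited. It was 389 with median-ratio and 290 with quantile scaling, and 239 length-weighted. It was 95 with a 5 FPKM filter, 73 with the block, 50 with a pseudocount of 0.1, 7 with 6 libraries and 4 with no filter. With 1 library left out it was 3 to 1089. The double-mutant count against p53+/- was 597 of 12591, and 3892 of 12014 as deposited. It was 1030 with median-ratio and 1069 with quantile scaling, 54 with 6 libraries, 32 with no filter and 563 with the block. With 1 library left out it was 32 to 2990. Between double mutant and Tsc1-deleted it was 2, and 0 to 5 over all alternatives. As deposited nearly all calls against p53+/- were higher (1459 of 1470 and 3838 of 3892), against 40 of 140 and 310 of 597 rescaled. Of 572 values for single members over 21 alternatives, 548 kept their side of the threshold or stayed within 1 SD, 21 moved and 3 newly passed. In p53+/- 1 and 2 the small nuclear share left about 3 to 20 reads for most low members.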

Other observations

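The library labelled p53+/- 3 also held Wnt ligands that the other 8 had at low levels. As deposited, Wnt10a was 49.8 FPKM there and at most 0.62 elsewhere, and Wnt7b was 9.73 there and at most 1.21 elsewhere. Both genes were chosen after their values were seen.

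Mir8114, which shares 93 exonic bases with Glul on the same strand, was listed at 67.3, 16.3 and 43.2 FPKM in Tsc1-deleted and 19.1, 101 and 92.0 in double-mutant livers as deposited. Reads of Glul and of this small RNA cannot be told apart in the shared bases.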
